A study of Mus musculus with 346 samples.

Results

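The genes described here are 40 markers of the mitotic cell cycle, 24 that act in mitosis and 16 that act in or before S phase, taken from 25140 analysed genes. They were picked by name after the Entrez identifiers in the files had been matched to symbols, and all 40 were present in every file. A member was called detected in a cell when it had at least 1 read after the cell had been thinned at random to 100000 reads, so that cells of different depth could be set side by side. Cells with 10 or more detected members are described separately.

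A cell that prepares to divide first loads the MCM helicase onto its replication origins, then copies its DNA with help from a sliding clamp and enzymes that supply nucleotides. It then enters mitosis under cyclin-dependent kinase, attaches its chromosomes to the spindle, and exits when the anaphase-promoting complex marks the mitotic cyclins for destruction. In the mammary gland, growth of the ducts at puberty is driven from terminal end buds, whose body and cap cells divide, while the adult virgin gland turns over more slowly.

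Mammary glands of female FVB/NJ mice were profiled at pre-puberty (2 weeks of age), puberty (4.7 to 4.9 weeks) and adulthood (10 weeks), with no treatment and no genetic change at any stage. Single cells sorted as total epithelium were caught on a Fluidigm C1 chip, which takes cells of a limited size range, and each of the 346 libraries is 1 cell. The labels name neither the mouse nor the sort or chip of a cell, so each stage counts as 1 sample, and no test between stages was possible. Stage and chip cannot be told apart. Shares are given with exact (Clopper-Pearson) 95% intervals and sums of reads with exact Poisson 95% intervals. Both cover counting error only, and reads without molecular identifiers can be copies of the same molecule.

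Promoters of 3 mitosis and 2 S phase genes are shown first, because the shares of promoters with each motif given below differ between these sets. They are RefSeq windows on GRCm38.p6 from the C57BL/6J reference, not from FVB/NJ mice, and each has 250 bases before the annotated start and 50 from it, written 5′ to 3′ on the strand of the gene. Ccnb1 (mitotic cyclin B1) lies at chr13:100786437-100786736 on the minus strand, Cdc20 (activator of the anaphase-promoting complex) at chr4:118437294-118437593 on the minus strand, and Plk1 (a mitotic kinase) at chr7:122159185-122159484 on the plus strand. Mcm5 (helicase subunit) lies at chr8:75109259-75109558 on the plus strand and Pcna (the sliding clamp) at chr2:132253131-132253430 on the minus strand. Capitals mark 3 motifs searched on both strands. These are the cell cycle homology region or CHR (TTTGAA or TTCGAA), the E2F core (TTGGCGC or TTCCCGC) and the CCAAT box (CCAAT).
Ccnb1: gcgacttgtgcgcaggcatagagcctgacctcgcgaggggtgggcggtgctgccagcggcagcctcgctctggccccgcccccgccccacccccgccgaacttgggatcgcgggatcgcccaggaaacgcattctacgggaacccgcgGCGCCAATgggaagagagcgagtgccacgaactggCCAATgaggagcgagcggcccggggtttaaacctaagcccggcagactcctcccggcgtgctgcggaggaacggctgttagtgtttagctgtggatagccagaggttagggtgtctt
Cdc20: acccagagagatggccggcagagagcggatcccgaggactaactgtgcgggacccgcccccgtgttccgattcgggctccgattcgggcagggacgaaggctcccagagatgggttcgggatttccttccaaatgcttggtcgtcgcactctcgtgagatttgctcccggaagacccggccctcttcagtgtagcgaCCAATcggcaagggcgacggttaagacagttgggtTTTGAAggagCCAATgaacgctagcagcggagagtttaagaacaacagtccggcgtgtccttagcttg
Plk1: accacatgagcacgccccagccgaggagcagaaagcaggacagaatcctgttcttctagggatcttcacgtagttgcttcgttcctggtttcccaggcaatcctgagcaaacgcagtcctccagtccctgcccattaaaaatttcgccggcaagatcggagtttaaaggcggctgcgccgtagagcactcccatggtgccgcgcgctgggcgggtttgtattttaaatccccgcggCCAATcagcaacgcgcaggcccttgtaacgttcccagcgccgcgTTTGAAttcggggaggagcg
Mcm5: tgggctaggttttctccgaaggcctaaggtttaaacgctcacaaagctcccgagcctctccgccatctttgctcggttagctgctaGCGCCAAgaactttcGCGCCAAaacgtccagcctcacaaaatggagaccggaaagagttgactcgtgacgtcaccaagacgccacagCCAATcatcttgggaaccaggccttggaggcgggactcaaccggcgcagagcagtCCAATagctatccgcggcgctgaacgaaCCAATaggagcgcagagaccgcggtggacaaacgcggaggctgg
Pcna: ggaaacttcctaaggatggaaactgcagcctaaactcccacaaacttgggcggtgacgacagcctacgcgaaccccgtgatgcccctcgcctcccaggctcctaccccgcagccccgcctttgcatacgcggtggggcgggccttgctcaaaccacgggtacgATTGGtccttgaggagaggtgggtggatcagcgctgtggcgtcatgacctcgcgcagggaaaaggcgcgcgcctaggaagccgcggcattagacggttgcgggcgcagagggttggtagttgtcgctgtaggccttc

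Cdc20 held a CHR 18 bases before the start and Plk1 held one at base 31 of the transcribed part, whereas neither held the E2F core. In Mcm5 the E2F core stood on the reverse strand at a pair of places, the first 164 bases before the start, with 3 CCAAT boxes after them. The Ccnb1 window held no CHR by these letters. Its E2F core and its first CCAAT box share letters, since the run GCGCCAAT holds both. The Pcna window held only a CCAAT box, read on the reverse strand as ATTGG.

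Windows were found for 33 of the 40 members, 20 of mitosis and 13 of S phase. Those of Ccna2, Aurkb, Kif20a, Tpx2, Mcm4, Gins2 and Ccne2 were not used here. A CHR stood in 16 of the 20 mitosis windows (80%) and in 2 of the 13 S phase windows (15.4%), beside 19.4% of the first windows of all 27025 genes. The E2F core gave the opposite order, with 3 of 20 mitosis windows (15%), 8 of 13 S phase windows (61.5%) and 6.93% of all genes. A CCAAT box stood in 18 of 20 mitosis windows (90%) and 9 of 13 S phase windows (69.2%), beside 37.9% of all genes. These are matches of letters and not mapped binding sites.

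Of 144 pre-pubertal, 136 pubertal and 66 adult cells, 116, 119 and 44 had at least 100000 reads on analysed genes and 1500 detected genes, 279 in all. Reads per kept cell ran from 109387 to 1189155, with medians of 296600, 574825 and 334667. After thinning, a median of 2867.5 genes was left per pre-pubertal cell, 2705 per pubertal cell and 2142 per adult cell. The label of total epithelium was checked against listed marker genes, and the pre-pubertal cells went against it. In those of them with fewer than 10 members, a median of 0 of 14 epithelial markers and 17 of 24 Schwann cell markers were detected, and in those with 10 or more, 1.5 and 16. The pubertal and adult cells showed medians of 7 to 9 epithelial markers. Col1a1 and Col3a1, collagens made by fibroblasts and by some glia, were read in at least 95% of pre-pubertal cells. By these marker lists the pre-pubertal cells therefore differ from the later ones in more than age. The study reads them as epithelium with a basal-like program and imaged basal proteins in the luminal layer at this age. The Schwann list holds Scn7a and Ngfr, which the study counts among basal genes. The origin of these cells was not tested. Fewer cells of a type and less RNA per cell cannot be told apart in summed levels.

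At puberty 36 of 119 cells showed 10 or more members, a share of 30.3% (22.2 to 39.3). The share was 20 of 116 at pre-puberty, 17.2% (10.9 to 25.4), and 7 of 44 in adults, 15.9% (6.64 to 30.1). The pubertal share was the highest, but its interval overlapped those of both other stages. At 20 or more members the order was the same, with a pubertal share of 16.8% (10.6 to 24.8), a pre-pubertal share of 8.62% (4.21 to 15.3) and an adult share of 4.55% (0.555 to 15.5). Cells with 25 or more members numbered 2 at pre-puberty and 9 at puberty. None of the 44 adult cells reached that number, and the exact interval of that share ends at 8.04%.

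**Figure D1:**
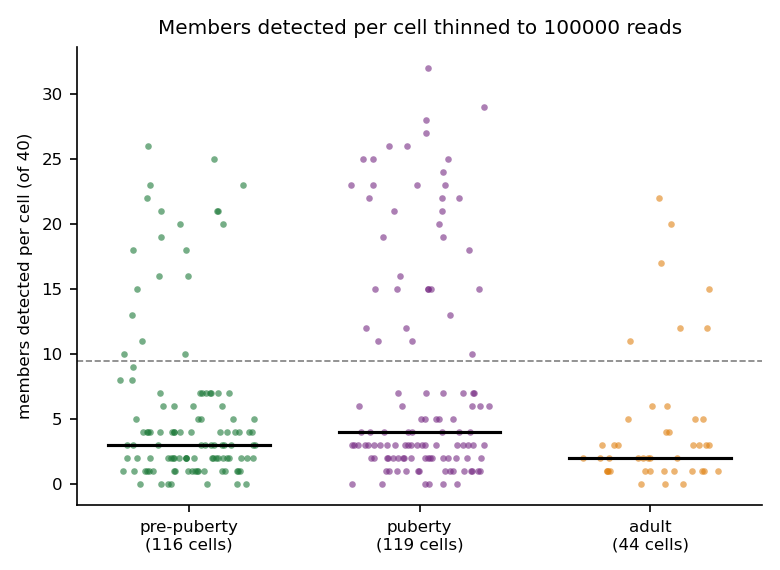
Number of the 40 members detected in each cell after thinning to 100000 reads, for 116 pre-pubertal, 119 pubertal and 44 adult cells, with each point 1 cell, the solid bar the median and the dashed line between 9 and 10 members. Most cells lie at 7 members or below, and 36 pubertal, 20 pre-pubertal and 7 adult cells lie above the line.

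The typical cell of every stage showed few members. Pre-pubertal cells had a median of 3 members (quartiles 2 and 7), pubertal cells 4 (2 and 14) and adult cells 2 (1 and 5), while the highest cells had 26, 32 and 22. As the plot of members per cell shows, few cells lay close to the limit, with 11 pre-pubertal, 6 pubertal and 0 adult cells at 7 to 9 members and 3, 5 and 3 cells at 10 to 12. Without thinning, 28 pre-pubertal cells (24.1%), 43 pubertal cells (36.1%) and 7 adult cells (15.9%) reached 10. Cells with 10 or more members also showed more genes in total, since the median of thinned genes was 3217 against 2781 at pre-puberty, 3386 against 2507 at puberty and 2954 against 2098 in adults. The part of this wider gene detection in the member counts was not tested. The pre-pubertal cells fall into runs of cell numbers that differ in depth. Of the first run, cells 1 to 37, 4 of 12 kept cells had 10 or more members (33.3%, interval 9.92 to 65.1), and from cell 38 on 16 of 104 had (15.4%, interval 9.06 to 23.8).

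S phase and mitosis members were mostly detected in the same cells at puberty. There 24 cells had both at least 5 of 16 S phase members and at least 8 of 24 mitosis members, 11 had only the first and 5 only the second. At pre-puberty 12 cells had both, 9 only the S phase set and 4 only the mitosis set. Of the adult cells 1 had both, 3 only the S phase set and 4 only the mitosis set. The median cell with 10 or more members held 13.5 mitosis and 6 S phase members at pre-puberty, 12.5 and 8 at puberty, and 11 and 4 in adults. More mitosis than S phase members were read in 15 of 20, 27 of 36 and 5 of 7 of these cells.

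**Figure D2:**
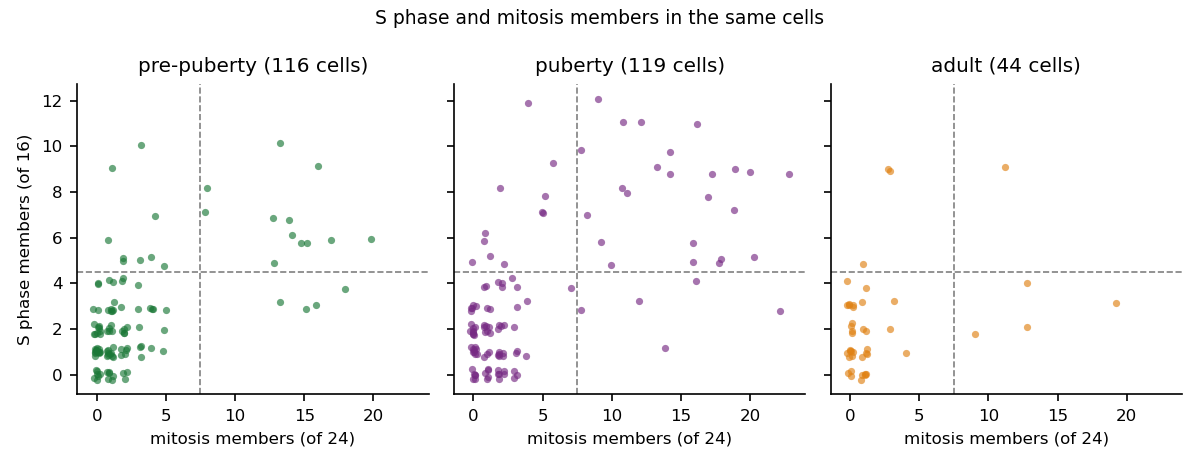
Number of S phase members (of 16) against mitosis members (of 24) detected in each thinned cell of the 3 stages, with points moved slightly apart and dashed lines at the limits of 5 and 8. The upper right field holds 12 pre-pubertal, 24 pubertal and 1 adult cell, and the lower left field holds 91, 79 and 36.

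Reads of the 40 members summed over the cells of a stage came to 1490 reads per 1000000 analysed reads (CPM; 1478 to 1502) at pre-puberty, 2575 (2563 to 2587) at puberty and 1595 (1577 to 1614) in adults. Pubertal cells were thus higher than pre-pubertal cells by 0.79 and than adult cells by 0.69 on the log2 scale, which carried 5 CPM added to each value here and below. Mitosis members gave 999, 1740 and 1009 CPM and S phase members 491, 835 and 587 CPM, so both sets were highest at puberty. The intervals are far narrower than the spread between cells. Among cells with 10 or more members the summed member level ran from 939 through a median of 4723 to 18171 CPM at pre-puberty, from 487 through 6162 to 15714 at puberty, and from 1536 through 6962 to 8427 in adults. These cells held 81.1%, 84.2% and 79.3% of all member reads from 20.5%, 29.8% and 20.7% of all reads. A single adult cell (cell 23) gave 24.2% of the adult member reads, and cells 48 and 70 gave 15.8% and 8.64% at pre-puberty and puberty. Without those 3 cells the sums were 1271, 2387 and 1267 CPM.

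Per member, the lowest cell stood at 0 CPM at every stage, and the median cell was also at 0 for 39 of the 40 members at pre-puberty, 37 at puberty and 38 in adults. The exceptions were Pcna at all 3 stages, Top2a and Uhrf1 at puberty and Rrm1 in adults. Levels therefore rest on few cells. For 30 of the 40 members more than 50% of the adult reads came from 1 cell, against 7 members at pre-puberty and 5 at puberty. The share of cells that detect a member is less open to single cells and is given first below.

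Detection was highest at puberty for 30 of the 40 members, at pre-puberty for 5 and in adults for 5. The median member was detected in 12.1% of pre-pubertal, 20.2% of pubertal and 9.09% of adult cells. Of the 37 members with a mean of at least 5 CPM over the stages, 31 had a higher share at puberty than at pre-puberty, where 49.1% of all genes above that level did. The same number, 31 of 37, were higher at puberty than in adults, beside 69% of all such genes. For pre-puberty over adult it was 27 of 37, beside 65.8%. Intervals did not overlap for 3 members between puberty and pre-puberty, Ccnb1, Rrm2 and Tyms, beside 9.35% of all such genes, which is near the share among the members. Between puberty and adult they did not overlap for 6, namely Cdk1, Tpx2, Prc1, Rrm2, Tyms and Uhrf1, beside 6.17%. All of these were higher at puberty, and 0 members were lower at puberty than at pre-puberty or in adults, beside 12.4% and 2.42% of such genes. Between pre-puberty and adult no member's intervals were apart, beside 13.5% of such genes higher and 4.98% lower.

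**Figure D3:**
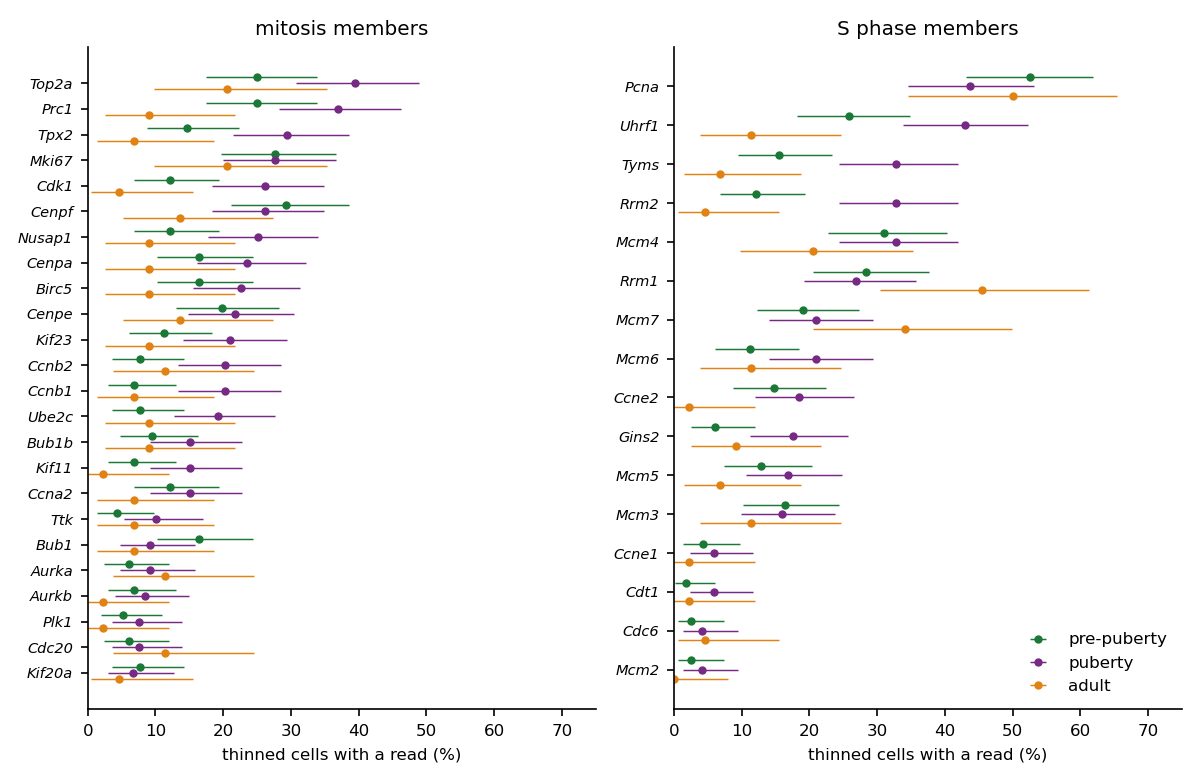
Share of thinned cells (%) with at least 1 read of each mitosis member (left) and S phase member (right), with points for the share at pre-puberty (green), puberty (purple) and adult (orange) and bars for exact 95% intervals. The purple point is the rightmost for 30 of the 40 genes, and Pcna and Rrm1 are among those where it is not.

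Among the mitotic kinases and cyclins, Cdk1 (Entrez 12534), the kinase that starts mitosis, was detected in 31 of 119 pubertal cells (26.1%, 18.4 to 34.9), in 14 of 116 at pre-puberty (12.1%, 6.76 to 19.4) and in 2 of 44 in adulthood (4.55%, 0.555 to 15.5). Its highest cell stood at 2272, 963 and 561 CPM at the same stages, and its summed level was 120, 31.4 and 20.9 CPM. Ccnb1 (Entrez 268697), its main cyclin partner, was read in 24 pubertal cells (20.2%, 13.4 to 28.5), 8 pre-pubertal cells (6.9%, 3.02 to 13.1) and 3 adult cells (6.82%, 1.43 to 18.7). All 24 of those pubertal cells were cells with 10 or more members, a limit toward which Ccnb1 itself counts. A processed copy, Ccnb1-ps, took 491 reads of its own, so the split of reads between the copies is uncertain. Ccnb2, a second B-type cyclin, and Ccna2, which acts in S phase and early mitosis, were read in 20.2% and 15.1% of pubertal cells against 7.76% and 12.1% of pre-pubertal cells. The summed level of Ccnb2 was however highest in adults, at 92.1 CPM against 38.8 at puberty, with 50.4% of the adult reads from 1 cell. The kinases Plk1, Aurka and Aurkb, which build the spindle and correct faulty attachments, were each detected in under 10% of pubertal cells, with shares of 7.56%, 9.24% and 8.4%.

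Genes of the spindle checkpoint were thinly detected. Bub1, a checkpoint kinase, was the only mitosis member apart from Cenpf and Kif20a with its highest share at pre-puberty, 16.4% against 9.24% at puberty and 6.82% in adults, although its summed level was lowest there at 25.3 CPM against 75.4 and 97.1. Bub1b, which holds back the anaphase-promoting complex, was read in 9.48%, 15.1% and 9.09% of cells. Ttk, the kinase that recruits both to the chromosome, was read in 4.31%, 10.1% and 6.82% of cells. The highest cell had 388 CPM of Ttk at pre-puberty, 1172 at puberty and 1865 in adults, and that adult cell held 98.8% of the adult Ttk reads. Cdc20 and Ube2c, which activate and charge the anaphase-promoting complex, were detected in 6.03% and 7.76% of pre-pubertal, 7.56% and 19.3% of pubertal and 11.4% and 9.09% of adult cells.

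Structural genes of mitotic chromosomes and the spindle were among the most widely detected. Top2a (Entrez 21973), the topoisomerase that untangles sister chromatids, was read in 39.5% of cells at puberty (30.7 to 48.9), 25% at pre-puberty (17.4 to 33.9) and 20.5% in adulthood (9.8 to 35.3). Its summed level was 377, 245 and 47.2 CPM at those stages, with highest cells of 5192, 9567 and 821 CPM. Cell for cell the pre-pubertal maximum was thus above the pubertal one, and 50.7% of the pre-pubertal Top2a reads came from that cell. Mki67 (Entrez 17345), the coat protein of mitotic chromosomes used in pathology as a proliferation marker, did not separate puberty from pre-puberty by its share, with 27.7% (19.9 to 36.7) against 27.6% (19.7 to 36.7). At pre-puberty 16 of the 32 cells with Mki67 reads had fewer than 10 members, against 5 of 33 at puberty and 4 of 9 in adults. Of all kept cells 96 of 116, 83 of 119 and 37 of 44 had fewer than 10, a limit toward which Mki67 itself counts. Prc1, which bundles the microtubules of the central spindle, was read in 37%, 25% and 9.09% of pubertal, pre-pubertal and adult cells, and Tpx2, a spindle assembly factor, in 29.4%, 14.7% and 6.82%.

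The centromere and motor genes differed unevenly between the stages. Cenpa, the histone that marks the centromere, was read in 23.5% of pubertal cells against 16.4% and 9.09%, and Cenpf, of the outer kinetochore, in 26.1% against 29.3% and 13.6%. Cenpe, a kinetochore motor, was read in 21.8% of pubertal, 19.8% of pre-pubertal and 13.6% of adult cells, and 54.9% of its adult reads came from 1 cell at 4686 CPM. The motors Kif11, which pushes the spindle poles apart, Kif23, which works at the midbody, and Kif20a, needed for cytokinesis, were read in 15.1%, 21% and 6.72% of pubertal cells. Their shares were 6.9%, 11.2% and 7.76% at pre-puberty and 2.27%, 9.09% and 4.55% in adults. Birc5 (survivin, of the chromosomal passenger complex) was read in 22.7% of pubertal cells, 26 of them among the 36 with 10 or more members and 1 outside. It counts toward that limit itself. Nusap1, which links microtubules to chromosomes, was read in 25.2% of pubertal, 12.1% of pre-pubertal and 9.09% of adult cells.

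Replication licensing genes were uneven. The 6 helicase subunits ranged at puberty from 4.2% of cells for Mcm2 to 32.8% for Mcm4. Mcm7 was read most widely in adults, in 34.1% of cells against 21% at puberty. Fewer than 10 members were read in 12 of its 15 adult cells, beside 37 of all 44 kept adult cells. Mcm2 had no read in any kept adult cell (exact upper bound 0.197 CPM). Its summed level was 5.52 CPM at puberty and 9.53 CPM at pre-puberty, with 76.7% and 98.7% of those reads from 1 cell each. Mcm6 was read in 21% of pubertal cells against 11.2% and 11.4%, while Mcm3 and Mcm5 were read in 16% and 16.8% of pubertal cells against 16.4% and 12.9% of pre-pubertal cells. The loading factors Cdc6 and Cdt1, the G1/S cyclin gene Ccne1 and Mcm2 were the least detected members at puberty, at 4.2% to 5.88% of cells. Cdc6 was read in 0 of 20 cells with 10 or more members at pre-puberty, 1 of 36 at puberty and 0 of 7 in adults. Among the other cells it was read in 3 of 96, 4 of 83 and 2 of 37, too few to set these groups apart. Gins2, of the replicative helicase, and Ccne2 (cyclin E2) were read in 17.6% and 18.5% of pubertal cells.

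The nucleotide genes Rrm2 and Tyms were the only members whose pubertal interval of detection lay above those of both other stages. The share of all genes that lay above both was not counted, so this only describes the members. Rrm2 (Entrez 20135), the regulated subunit of ribonucleotide reductase, was read in 39 of 119 pubertal cells (32.8%, 24.4 to 42), in 14 of 116 at pre-puberty (12.1%, 6.76 to 19.4) and in 2 of 44 in adulthood (4.55%, 0.555 to 15.5). Its highest cell had 2094, 2977 and 1600 CPM at those stages. Tyms (Entrez 22171), which makes thymidylate, was read in 32.8% of cells at puberty (24.4 to 42), 15.5% at pre-puberty (9.46 to 23.4) and 6.82% in adulthood (1.43 to 18.7). A processed copy, Tyms-ps, took 5063 reads, so both the level and the detection share of Tyms are uncertain. Rrm1, the other reductase subunit, did not share the pattern and was read in 26.9% of pubertal, 28.4% of pre-pubertal and 45.5% of adult cells. Uhrf1 (Entrez 18140), which carries DNA methylation through replication, was read in 42.9% (33.8 to 52.3), 25.9% (18.2 to 34.8) and 11.4% (3.79 to 24.6) of pubertal, pre-pubertal and adult cells.

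Pcna (Entrez 18538), the sliding clamp, was the most widely detected member of each stage. Its share was 52.6% (43.1 to 61.9) among pre-pubertal cells, 43.7% (34.6 to 53.1) among pubertal cells and 50% (34.6 to 65.4) among adult cells. Of these cells 46 of 61, 27 of 52 and 16 of 22 had fewer than 10 members, beside 96 of 116, 83 of 119 and 37 of 44 of all kept cells. Levels of members are compared with each other here only per kilobase of gene length (RPKM). Detection shares are not corrected for length. On the RPKM scale Pcna led at pre-puberty with a level of 49.6 before Top2a at 46.9 and Prc1 at 33.5. At puberty Top2a had 72.4, Pcna 71.2, Rrm2 58.5 and Cenpa 56.2 RPKM, and in adults Pcna had 103, Ccnb2 59.7 and Ube2c 50.8 RPKM.

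When summed levels were compared gene by gene, 15 of the 40 members were at least 2-fold higher at puberty than at pre-puberty and 0 were at least 2-fold lower, beside 10.5% and 9.44% of all 25140 genes. Among the 37 members with a mean of at least 5 CPM the count was 14, beside 22.2% of genes above that level. The members' median log2 difference was 0.76, against 0.11 over genes of at least 5 CPM. The 15 were 8 mitosis members (Ccnb1, Cdk1, Bub1, Bub1b, Ttk, Cenpa, Kif23 and Nusap1) and 7 S phase members (Mcm3, Mcm6, Rrm2, Tyms, Gins2, Cdc6 and Cdt1). Differences in this group ran from 1.06 for Cdt1 to 2.66 for Ttk on the log2 scale. Without the cell that held most reads of each gene at each stage, 11 of the 15 were still 2-fold higher.

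Against adult cells, 18 members were at least 2-fold higher at puberty and 2, Ccnb2 and Mcm3, at least 2-fold lower, beside 12.7% and 8.26% of all genes. Of the 37 better covered members 16 were higher, beside 26.5% of such genes. The median log2 difference was 0.51 over the members, also with adult Mcm2 set at 3 reads (0.16 CPM), and 0.13 over genes of at least 5 CPM. The largest differences were 3.01 for Mcm5, 2.87 for Top2a, 2.63 for Uhrf1, 2.27 for Cdk1 and 2.15 for Prc1. Without each gene's top cell 15 of the 18 were still 2-fold higher and neither Ccnb2 nor Mcm3 was 2-fold lower. Between pre-puberty and adult 9 members were 2-fold higher and 8 lower, beside 14.2% and 11.9% of all genes, with a median of -0.00. Without each gene's top cell 14 were higher and 5 lower, with 6 of the 9 and 5 of the 8 still past 2-fold and 2 of the 8 on the other side of 0. These comparisons share stages, so each is given for itself.

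Which members make up the cells with 10 or more is set by that limit and is given as a description only. At puberty Top2a was read in 34 of the 36, Uhrf1 in 32, Prc1 in 31, Tyms in 29 and Mki67 in 28. At pre-puberty Uhrf1 was read in 18 of the 20, Top2a and Cenpf in 17 each, and Mki67 and Rrm1 in 16 each. In the 7 adult cells Pcna and Rrm1 were each read in 6, and Mki67, Cenpf, Cdc20 and Uhrf1 in 5. The median mitosis member was read in 47.5%, 54.2% and 42.9% of these cells and in 3.65%, 3.61% and 0% of the others. For S phase members the medians were 37.5%, 41.7% and 28.6% against 8.33%, 10.2% and 4.05%.

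**Figure D4:**
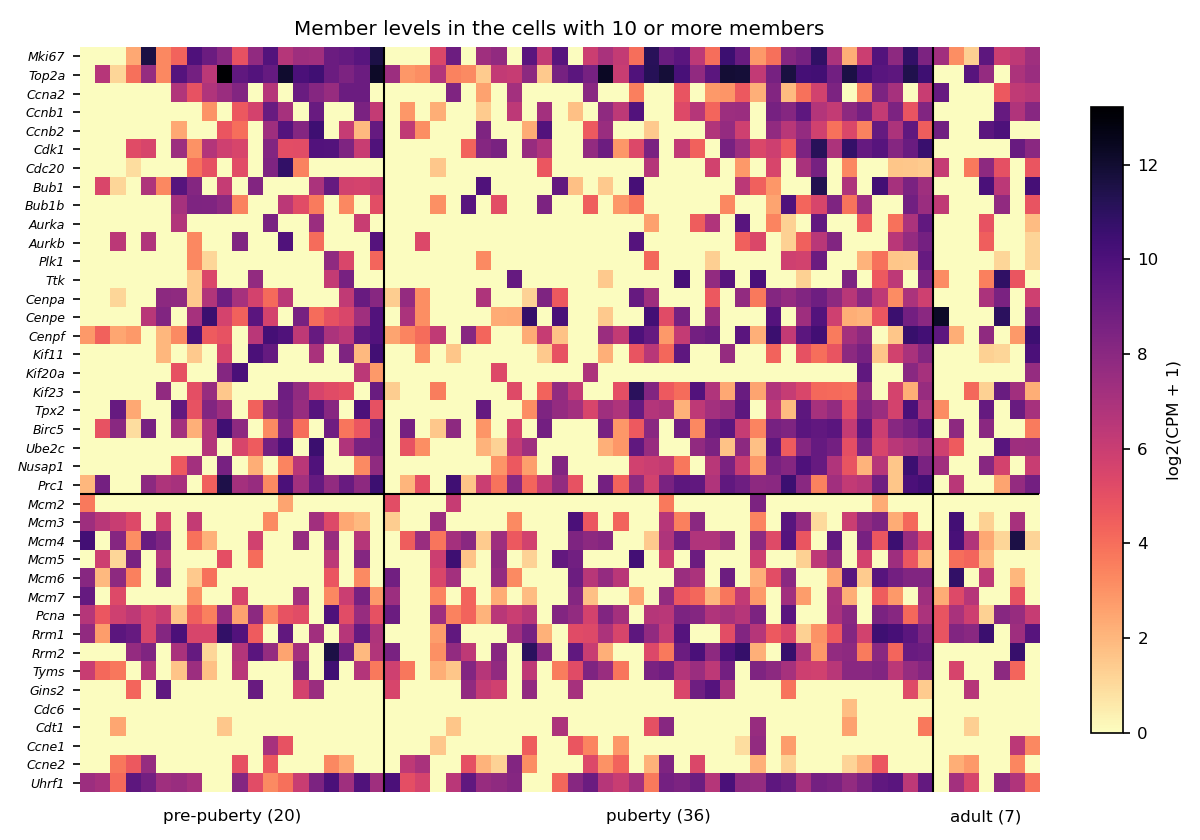
Level of each member, as log2(CPM + 1) without thinning, in the 63 cells with 10 or more members, with genes as lines of the grid (24 mitosis above the bar, 16 S phase below) and cells ordered within each stage by their number of members. Top2a and Uhrf1 are dark in most cells of the first 2 stages, while Cdc6, Cdt1, Ccne1 and Mcm2 are pale nearly throughout.

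The kind of cell was asked next, by clusters built without any cell cycle gene and, as a check, by each cell's own markers. All 20 pre-pubertal cells with 10 or more members lay in clusters named Schwann-like, 8 among 79 pre-pubertal cells of one and 12 among 36 of the other, which also showed a median of 5 of 15 basal markers. By their own markers 18 showed the largest share for the Schwann list and 2 for the basal list. A median of 16 of 24 Schwann markers was detected in them (lowest 10, highest 20), 4 of 15 basal markers and 0 of 10 luminal markers. Pmp22, a protein of peripheral myelin, was read in all 20, and the adhesion gene Cdh19 in 95%. Of the 24 Schwann markers 11 were read in a higher share of these cells than of the other pre-pubertal cells, 11 in a lower share and 2 in an equal one. Sox10, the regulator of the glial lineage, was read in 60% of them against 79.2% of the others, whereas S100b, a calcium-binding protein of glia, was read in 85% against 66.7%. Of 10 luminal markers 5 were higher and 4 lower, with Epcam, an epithelial surface protein, read in 35% against 10.4% and the keratin Krt8 in 5% against 9.38%. Basal markers were higher for 10 of 15 and lower for 5, and luminal progenitor markers were higher for all 10. Of 10 mature luminal markers 6 were higher and 1 lower. These counts stand beside 59.5% of all genes of at least 5 CPM higher. S100b and Krt8 were named after their values had been seen. No pre-pubertal cell lay in a luminal-like or basal-like cluster, so no share could be given for such cells at that stage.

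At puberty 17 of the 36 cells with 10 or more members lay in clusters named mature luminal-like and 18 in a cluster named mixed. The median cell of the mixed cluster showed 9 of 15 basal and 7 of 10 luminal markers. The remaining 1 (cell 55, with 9 basal and 8 Schwann markers) lay in a Schwann-like cluster. Cells with 10 or more members made up 17 of 57 cells of the mature luminal-like clusters, 29.8% (18.4 to 43.4), and 18 of 47 of the mixed cluster, 38.3% (24.5 to 53.6), and these intervals overlap. None of the 6 luminal progenitor-like and none of the 5 basal-like pubertal cells had 10 members, and the exact intervals of those shares end at 45.9% and 52.2%. These counts hold for the cluster names only. In the mixed cluster, cells 92 and 106 had 14 basal markers each with 1 and 2 luminal ones. Cells 78 and 93 of that cluster had 8 of 10 luminal progenitor markers each. By each cell's own markers 24 of the 36 were luminal, 11 basal and 1 tied. Of the 83 other pubertal cells 65 were luminal, 15 basal and 3 tied. The 18 of the 36 in the mixed cluster were 10 basal, 7 luminal and 1 tied by their own markers. At least 5 basal and 5 luminal markers were read together in 11 of the 36, against 21 of the 83 other pubertal cells. No caller of doublets was run, because wells were inspected under the microscope by the study. The part of wells with more than 1 cell was not tested.

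**Figure D5:**
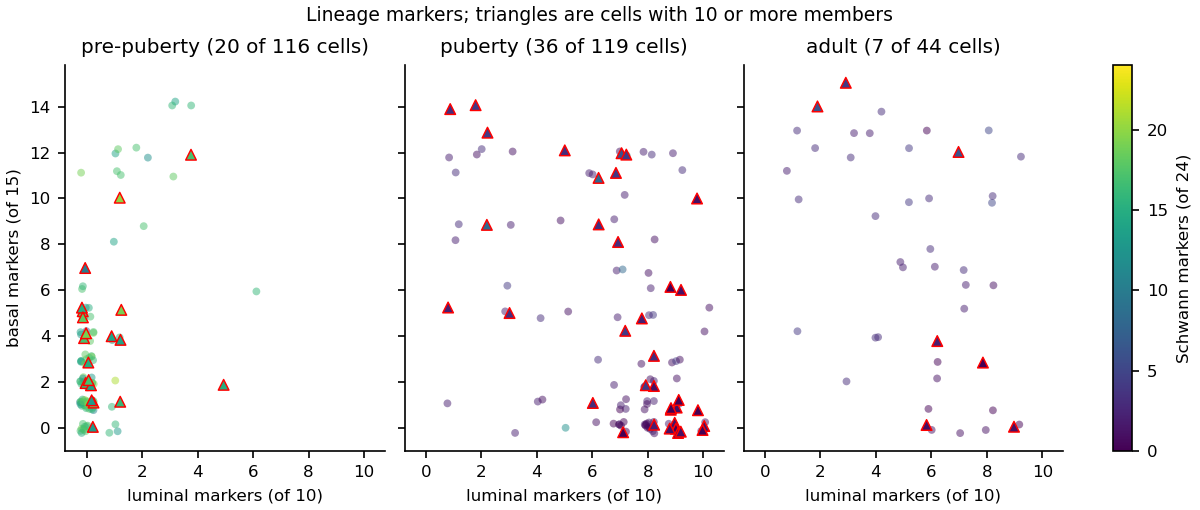
Basal markers (of 15) against luminal markers (of 10) detected in each thinned cell of the 3 stages, with colour for the number of Schwann markers (of 24), triangles for cells with 10 or more members, circles for the others, and points moved slightly apart. Pre-pubertal triangles lie at 5 or fewer luminal markers with 10 to 20 Schwann markers, and most pubertal triangles lie at high luminal counts, with others up to 14 basal markers.

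Hormone receptor genes of mature luminal cells were read in the pubertal cells with 10 or more members and in the other pubertal cells, with gaps in both directions. Of 10 mature luminal markers 5 were higher in the former and 4 lower, and of 15 basal markers 12 were higher and 3 lower, beside 76.3% of all genes of at least 5 CPM higher. The prolactin receptor Prlr was read in 94.4% against 92.8%, the growth factor gene Areg in 69.4% against 66.3%, Foxa1 in 55.6% against 44.6%, the oestrogen receptor Esr1 in 27.8% against 34.9% and the progesterone receptor Pgr in 22.2% against 25.3%. The keratins Krt8 and Krt18 of luminal cells were read in 91.7% and 88.9% and Epcam in 100%, while Krt14 and the smooth muscle actin Acta2 of basal cells were read in 47.2% and 61.1% (33.7% and 51.8% in the others). At least 3 of the 5 genes that the study tied to cap cells were read in 14 of these 36 cells (38.9%, 23.1 to 56.5) and in 14 of the 83 others (16.9%, 9.54 to 26.7). That list was chosen by the study on these cells and the first group also detects more genes in total. Of the 5, Nrg1 was read in 72.2% against 49.4% and Wif1 in 25% against 7.23%.

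Of the 7 adult cells with 10 or more members, 4 lay in luminal-like clusters (2 mature luminal-like, 2 luminal progenitor-like), 2 in the basal-like cluster and 1 in the mixed cluster. That is 4 of 18 luminal-like adult cells, 22.2% (6.41 to 47.6), and 2 of 17 basal-like cells, 11.8% (1.46 to 36.4). Their own markers put 4 as luminal and 3 as basal. Cell 22, basal-like, had 20 members with 14 basal and 2 luminal markers. Cell 23, mature luminal-like, had 17 members with 0 basal and 9 luminal markers. Cell 58, in the mixed cluster, had 22 members with 15 basal and 3 luminal markers. Adult cells of both kinds were therefore among those with many members, but 7 cells are too few to rank the classes.

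Cell cycle genes outside the 40 were read from 6 lists of 90 genes in all. Of 35 other mitosis genes, 14 were at least 2-fold higher and 1 lower at puberty than at pre-puberty, and 12 higher and 3 lower at puberty than in adults, with median log2 differences of 0.55 and 0.49. Over all genes of at least 5 CPM the shares were 22.2% and 19.3% against pre-puberty and 26.5% and 18.4% against adults. The median differences over these genes were 0.11 and 0.13. That level was passed by 32 of the 35 mitosis genes. Over all analysed genes the shares were 10.5% and 9.44% against pre-puberty and 12.7% and 8.26% against adults. Of the mitosis genes, Smc4 and Smc2, the ATPases of condensin, had 352 and 214 CPM at puberty, 188 and 121 at pre-puberty, and 274 and 13.9 in adults. Leaving out its highest adult cell brought Smc4 to 123 CPM there and Smc2 to 7.88. Pttg1 (securin, which guards sister chromatid cohesion) had 143, 67.3 and 203 CPM at those stages and 123, 56.2 and 125 CPM without its top cells. Of 18 other replication genes 4 were 2-fold higher and 2 lower against pre-puberty and 6 higher and 3 lower against adults. These counts are to be read against the same shares, and 17 of the 18 passed 5 CPM. Tipin, of the fork protection complex, had 189 CPM at puberty, 120 at pre-puberty and 74.6 in adults, whereas Prim1 (primase) had 63, 66.7 and 199. Without the top adult cell of each gene, Tipin had 11.6 and Prim1 109 CPM in adults, and Prim1 had 41 CPM at pre-puberty without its top cell there.

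The lists of regulators upstream of division are set beside the shares of genes of at least 5 CPM, 22.2% 2-fold higher and 19.3% lower at puberty than at pre-puberty. Over all genes, with those below 5 CPM, the shares were 10.5% and 9.44%. Among G1 cyclins and kinases 1 of 6 was 2-fold higher and 1 lower at puberty than at pre-puberty. Ccnd1 (cyclin D1) had 436 CPM at puberty, 468 at pre-puberty and 418 in adults, and Cdk4, its kinase partner, was read in 66.4%, 40.5% and 36.4% of cells. Ccnd2 (cyclin D2) had 136, 124 and 34 CPM, and its adult level was 10.1 CPM without the top cell. Among 7 inhibitors of cyclin-dependent kinases 0 were 2-fold higher and 2 lower at puberty than at pre-puberty. These 2 were Cdkn1c (p57), with 85.6 against 330 CPM, and Cdkn2c (p18), with 4.89 against 76.7. Without the top cell of each stage Cdkn1c had 66.6 against 89.9 CPM, no longer a 2-fold difference, and Cdkn2c 2.04 against 65.6. Cdkn1a (p21) was read in 57.1%, 81% and 45.5% of cells at puberty, pre-puberty and adult. Among 18 transcriptional regulators 2 were 2-fold higher and 6 lower at puberty than at pre-puberty. Myc, which drives cell growth, had 92.5, 260 and 118 CPM, while Rb1 and Rbl2, which restrain E2F, had 86.6 and 30.6 at puberty, 48.7 and 20.7 at pre-puberty, and 266 and 240 in adults. The adult level of Rbl2 was 7.37 CPM without its top cell, and that of Rb1 was 180. None of 6 chromatin and cytoskeleton genes passed 2-fold between puberty and pre-puberty, and Tubb5 (a tubulin) had 873 CPM at puberty, 1405 at pre-puberty and 109 in adults, Stmn1 (stathmin) 87.7, 91.7 and 68, and Hmgb2 39.1, 25.8 and 38.4. The pre-pubertal level of Hmgb2 was 16.1 CPM without its top cell.

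Within a stage these lists, which did not choose the cells, were read beside the limit of 10 members. At pre-puberty 31 of the 35 other mitosis genes were detected in a share of cells at least 20 percentage points higher among cells with 10 or more members, beside 9.88% of all genes of at least 5 CPM. At puberty 27 of 35 were, beside 12.8%, and in adults 20 of 35, beside 23.9%. Of the 18 other replication genes 11, 15 and 12 passed the same limit. Hmgb2 was read in 95%, 83.3% and 85.7% of the cells with 10 or more members against 21.9%, 30.1% and 16.2% of the others. Ccnd1 was read in 95%, 97.2% and 85.7% against 69.8%, 84.3% and 40.5%. Cdkn1a went the other way at pre-puberty (65% against 84.4%) and in adults (28.6% against 48.6%) but not at puberty (72.2% against 50.6%).

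Outside all these lists, the 10 genes with the widest gap in detection between both kinds of pubertal cell were Tyms-ps, Tmpo, Pmf1, Esco2, Pclaf, Atad2, Vrk1, Anp32e, Nolc1 and Zfp367. Pclaf, a Pcna-binding factor, was read in 35 of 36 cells with 10 or more members against 32 of 83 others at puberty, in 18 of 20 against 5 of 96 at pre-puberty, and in 6 of 7 against 3 of 37 in adults. Esco2, which sets up cohesion between sister chromatids during S phase, was read in 22 of 36 against 2 of 83, 11 of 20 against 2 of 96, and 1 of 7 against 0 of 37. Pmf1, of the kinetochore, was read in 26 of 36 against 11 of 83 at puberty and 14 of 20 against 19 of 96 at pre-puberty, but in 0 of 7 against 4 of 37 in adults. Tmpo (a lamina protein) was read in 31 of 36 against 22 of 83 at puberty and was common in the other pre-pubertal cells too, at 57 of 96. These genes were picked for the pubertal gap, which is therefore a description, while the pre-pubertal and adult values did not enter the choice.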

How the data were processed

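Libraries were made by the authors with the Fluidigm C1 and Nextera XT and sequenced on an Illumina HiSeq 2000. Reads were aligned to mm10 with Subread 1.4.6 and counted per Entrez gene with featureCounts, per the labels and the study's methods. The deposited values are raw read counts per gene, 1 file per cell, beside a column of gene length in bases, from which RPKM was computed. All 346 files held the same 27179 genes, and 0 columns were left unused. Of these genes 1904 could not be matched to a current symbol and, with 15 mitochondrial and 120 ribosomal protein genes, were removed as in the study's methods.

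Cells with at least 100000 reads and 1500 genes were kept. Each was thinned without replacement to 100000 reads. CPM is reads per 1000000 reads on analysed genes, summed over the cells of a stage, and log2 ratios have 5 CPM added. Clusters are from Ward linkage on the first 20 principal components, computed from log2(CPM + 10) of the 1000 genes that varied most once all cell cycle genes had been left out, and were named from marker lists. A name rests on markers only, and class by each cell's own markers is the check. With 1 sample per stage no count test was run, and edgeR 4.0.16 (R 4.3.3) served only for TMM factors as an alternative. Python 3.11.15 with numpy 2.4.6, pandas 2.3.3, scipy 1.17.1 and matplotlib 3.10.9 did the rest, after a test on simulated data. No 2 cells held identical counts.

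The 40 members and all lists were chosen with earlier results of these data known. Named genes are the 40 members, the 3 with the highest mean CPM of each other cell cycle list, the 10 genes outside all lists with the largest pubertal difference in detection, and marker genes. A few genes that this rule names are not reported here. Alternatives varied the thinning, filters, weights, scaling, clusters and limits. Leaving out each gene's top cell and using 2000 variable genes were added after the data had been seen.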

Additional observations from a re-analysis of the deposited data

Results flagged for a closer look

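Cells left out for low coverage entered the comparisons only in the alternatives that dropped or loosened the filter or kept the removed genes. Member reads were present in them at all 3 stages, above the limit that a count of 0 allows (5.63, 4.01 and 6.88 CPM at pre-puberty, puberty and adult). The 28 pre-pubertal cells gave 4166 CPM (3994 to 4343), of which 70.4% came from cell 35, and 1409 CPM without it. The 17 pubertal cells gave 633 CPM (578 to 693). The 22 adult cells gave 667 CPM (593 to 749), with 38.1% from cell 47 and 479 CPM without it. With medians of 11327.5, 33276 and 14389.5 reads, most of these cells lay below the 100000 reads needed for thinning. Without thinning, 5 pre-pubertal, 2 pubertal and 0 adult cells of these showed 10 or more members, with at most 13.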

How the results depend on the processing

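No paired analysis was possible because cell numbers shared between stages name cells and not mice, and no result comes from a test. The share of cells with 10 or more members was highest at puberty under each alternative run for it. A limit of 5 members gave 34.5% at pre-puberty and 43.7% at puberty, and a limit of 20 gave 8.62%, 16.8% and 4.55% at pre-puberty, puberty and adult. The median number of members at puberty was 7 without thinning and 2 when 3 reads were needed, and in adults 4 and 1. The summed member level stayed highest at puberty in every alternative. Its log2 difference from pre-puberty (0.79) was 0.69 with equal weight per cell, 0.71 with TMM factors, 0.74 with no filter, 0.73 with the stricter filter, 0.91 without the top cells, 0.70 without the cells of 10 or more members, 0.69 with pre-pubertal cells from 38 on, and 0.61 with the removed genes kept. Against adult cells (0.69) it was 0.84, 0.58, 0.91, 0.48 and 0.72 with equal weight, stricter filter, no top cells, no cells of 10 or more members and removed genes kept. Pre-puberty over adult (-0.10) had no stable sign, at 0.15, -0.02, -0.05, -0.14, 0.01, -0.23, -0.01 and 0.12 in the order given for puberty over pre-puberty. Keeping the removed genes moved the median of all genes of at least 5 CPM in that comparison from 0.04 to 0.15.

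Members at least 2-fold lower at puberty than at pre-puberty numbered 1 with equal weight and 3 without the cells of 10 or more members. Against adults they numbered 1 with TMM, no filter or removed genes kept, and 5 without the cells of 10 or more members. Those lower at pre-puberty than in adults went from 8 to 4 without the top cells. Class depended on its definition. By each cell's own markers 66.7% of the pubertal cells with 10 or more members were luminal and 30.6% basal, against 65 and 15 of the 83 others. For the cells with 10 or more members, 10 clusters gave 11.1% basal at puberty and 6 clusters gave 0% basal in adults. The cause was not tested. The 44 adult cells include 7 with 10 or more members, so adult values rest on few cells.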
